A study of Mus musculus with 6 samples.

Results

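Kainate and NMDA receptors are 2 families of ion channels opened by the transmitter glutamate, and 9 of their subunit genes were followed by gene symbol: Grik1, Grik2, Grik3, Grik4 and Grik5 of the kainate family, and Grin1, Grin2a, Grin2b and Grin3a of the NMDA family. Of the 9 genes, 8 had at least 1 probe set under their symbol on the array and together had 16 of 45037 probe sets. Grin1 had none under its symbol and is given no value. Where a gene had several probe sets, the one brightest on average on the scale of log2(signal + 32) led. Of 18193 genes with a probe set of their own, the 9097 with the higher mean log2 values were tested, and these held 3 of the subunits: Grik1, Grik4 and Grin3a. Grik2, Grik3, Grik5, Grin2a and Grin2b lay below that line and were followed by their signals and by a fit without the filter.

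Each of 6 Affymetrix mouse arrays measured a single pool of neurons of dorsal root ganglia, sensory cells whose bodies lie beside the spinal cord. Titles gave 3 codes, and each code had 1 array of big and 1 of medium to small neurons. A pool of L3-B consisted of 50 control neurons, and a pool of L3-S or L6-R of 20 neurons that had taken up DiI, a dye that axons carry back to the cell body. The sources used here do not give strain, age, the dye's site, what the codes stand for or how many animals were used, so pools may share animals and the p-values rest on the spread among these pools alone.

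A kainate receptor is a tetramer in which the subunits encoded by Grik1, Grik2 and Grik3 can form a channel by themselves, while those encoded by Grik4 and Grik5 bind glutamate tightly but need one of the former as partner. An NMDA receptor needs the subunit of Grin1, joined by Grin2 subunits, which bind glutamate, or by Grin3 subunits, which bind glycine and lower the passage of calcium. In dorsal root ganglia, kainate receptors with the Grik1 subunit are known from small neurons with unmyelinated fibres, and NMDA receptors lie on the central terminals of sensory neurons.

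Signals are the authors' linear intensities, and values near or under 32 lie in the background of such arrays, where 55.3% to 59.5% of an array's probe sets fell. Differences are those of log2(signal + 32), which shrinks changes of dim genes, and carry the standard error (SE) from 1 limma model of code and size class fitted to all 6 arrays. The threshold was an adjusted p of 0.05 over all genes tested. All 10 listed markers of ganglion neurons had signals of at least 32 in every array, with summed signals of 54678 to 76387. The Actb control's signal at the 3' end over that at the 5' end, which is larger for broken or shortened RNA, ran from 3.73 in L3-B medium to small and 5.42 in L3-S big to 12.0 in L3-S medium to small and 13.9 in L3-B big, with 8.31 and 8.42 in the L6-R arrays. In pools of cells, fewer cells of a type and less RNA per cell cannot be told apart.

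The RefSeq promoter table held 4 of the 8 genes with a probe set: Grik2, Grik3, Grik4 and Grik5. Grik3 had signal over background only in L6-R, while Grik4 read over 32 in all 6 arrays. No difference of Grik4 between codes passed in the fit to the tested genes. The windows of these kainate subunits are shown for that contrast in signal. Each runs from 250 bases before to 50 bases after the gene's start on its own strand (GRCm38.p6), at chr4:125490446-125490745 on the plus strand for Grik3 and at chr9:42944322-42944621 on the minus strand for Grik4. Capitals mark the GC box GGGCGG, the core of sites bound by Sp-family factors, on either strand.
Grik3: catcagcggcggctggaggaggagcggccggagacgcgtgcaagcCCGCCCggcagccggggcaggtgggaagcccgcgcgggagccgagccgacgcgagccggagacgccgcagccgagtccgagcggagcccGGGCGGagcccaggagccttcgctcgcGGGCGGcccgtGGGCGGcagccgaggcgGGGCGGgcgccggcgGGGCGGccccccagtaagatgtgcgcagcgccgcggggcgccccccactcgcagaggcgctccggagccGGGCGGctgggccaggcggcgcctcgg
Grik4: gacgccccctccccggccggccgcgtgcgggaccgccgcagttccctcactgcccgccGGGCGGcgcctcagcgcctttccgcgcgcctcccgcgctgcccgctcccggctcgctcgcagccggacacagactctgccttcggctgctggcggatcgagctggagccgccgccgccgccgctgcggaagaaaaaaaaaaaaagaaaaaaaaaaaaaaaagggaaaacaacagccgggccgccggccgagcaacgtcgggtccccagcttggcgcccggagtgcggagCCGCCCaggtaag
The Grik3 window held 7 GC boxes, 50 CpG dinucleotides and 82.0% G and C, and the Grik4 window 2 GC boxes, 42 CpG dinucleotides and 70.0%. The Grik5 window held 2 GC boxes, 10 CpG dinucleotides and 72.0%, and that of Grik2 held 0, 26 and 64.7%. Over 32851 promoter windows of the same length, 35.7% held a GC box, and the medians were 7 CpG dinucleotides and 52.7% G and C. The AP-1 letters TGANTCA, the TATA box letters TATAAA and the letters CCAAT, searched on both strands, had 0 matches in these 4 windows, against 7.81%, 13.6% and 37.4% of all windows. The GC boxes did not overlap one another. These matches describe the letters alone.

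Grik3 (chromosome 4), a pore-forming kainate subunit that needs high glutamate concentrations to open, had signal over background in the L6-R arrays only. Its leading probe set read 169 in L6-R big and 185 in L6-R medium to small. L3-S read 27.5 (big) and 7.62 (medium to small) and L3-B 21.7 and 0.472, all under 32. The L6-R arrays stood apart from the other 4, and their gap to the next array, L3-S big, was 1.76 log2 against a residual SD of 0.26.

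Grik3 rose in L6-R against both other codes in the limma fit without a filter. The difference was 2.11 ± 0.26 log2 against L3-S (SE, 2 arrays per code, adjusted p = 0.0306) and 2.32 ± 0.26 against L3-B (adjusted p = 0.0114), point estimates of 4.30-fold and 5.01-fold. By size class (big, then medium to small), L6-R exceeded L3-S by 1.76 and 2.45, and L3-B by 1.91 and 2.74. In that fit to 18193 genes, 0.588% of genes passed between L6-R and L3-S and 2.51% between L6-R and L3-B, and both L6-R arrays lay above both others in 19.9% and 22.4%. L3-S and L3-B, both under 32, could not be resolved from each other (0.22 ± 0.26, adjusted p = 0.898, where 0.077% of genes passed).

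Grik3 passed in 7 of 13 alternative settings against L3-S (1.07 to 3.51 log2, adjusted p = 0.00392 to 0.459) and in 9 of 13 against L3-B (1.14 to 4.94, adjusted p = 0.00136 to 0.259). Without the L3-S big or L3-S medium to small array the difference from L3-S was 2.24 and 1.97 (adjusted p = 0.108 and 0.160), and without the L6-R big or L6-R medium to small array 2.49 and 1.72 (adjusted p = 0.128 and 0.301). Against L3-B it was 2.08 without the L3-B medium to small array (adjusted p = 0.0602), 2.70 without L6-R big (adjusted p = 0.0544) and 1.94 without L6-R medium to small (adjusted p = 0.101). With a pseudocount of 1 it stood at 3.51 against L3-S and 4.94 against L3-B (adjusted p = 0.459 and 0.259), and with one 4 times as high as 32 at 1.07 and 1.14. At that higher pseudocount, and with every probe set ranked by itself, Grik3 came among the upper 50% through its L6-R signals. Its passes there are counted above but are no support of their own, since L6-R is the code compared (adjusted p = 0.0168 and 0.00668, and 0.00752 and 0.00195). Without a filter the adjusted p was 0.0809 and 0.0435 at the higher pseudocount. With every probe set and no filter it was 0.0935 and 0.0364. In both counts, the fits without either array of the code not compared are the same fit, so their passes are not separate. The other Grik3 probe set read 1.30 to 9.09 in all 6 arrays, so 1 probe set alone carries this difference.

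**Figure D1:**
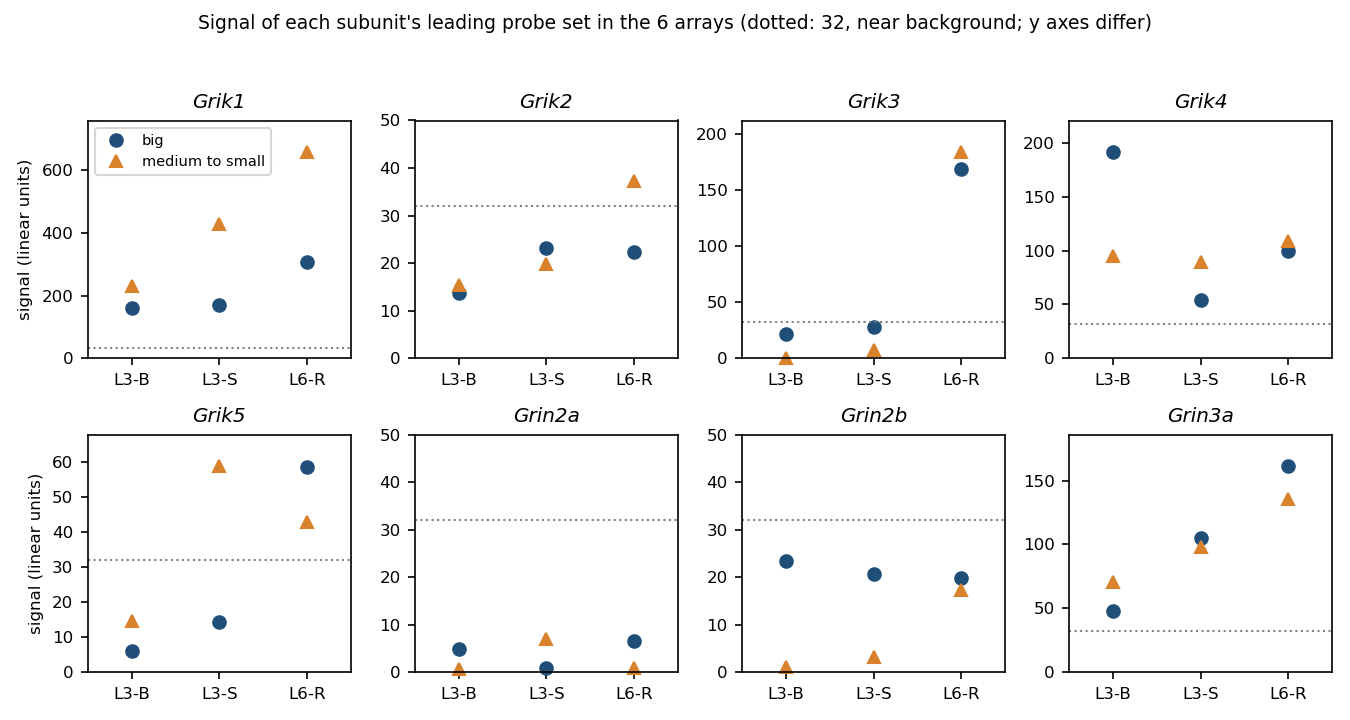
Signal of the leading probe set of the 8 subunits with a probe set (linear units, y axes differ by gene) by title code, with circles for big and triangles for medium to small neurons, 1 array a point. Grik3 stands at 169 and 185 in L6-R and under 32 elsewhere, Grik1 is higher in the medium to small array of each code, and Grin3a is ordered L3-B, L3-S, L6-R without overlap; Grin2a and Grin2b stay under the dotted line at 32.

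Grik1 (chromosome 16), the pore-forming kainate subunit best known from sensory neurons, had signals over background in every array. L3-B read 161 (big) and 230 (medium to small), L3-S 169 and 429, and L6-R 306 and 660. The L6-R arrays lay above both L3-B arrays, while L6-R and L3-S overlapped. Ordered from the highest, the arrays were L6-R medium to small, L3-S medium to small, L6-R big, L3-B medium to small, L3-S big and L3-B big. Only the last 2 lay closer together (0.06 log2) than the residual SD of 0.26.

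Grik1 rose in L6-R against L3-B by 1.10 ± 0.26 log2 (SE, 2 arrays per code, limma adjusted p = 0.0371), a point estimate of 2.15-fold. The rise was 0.81 in the big pair and 1.40 in the medium to small pair. L6-R stood 0.67 ± 0.26 above L3-S (adjusted p = 0.243) and L3-S 0.44 ± 0.26 above L3-B (adjusted p = 0.673), neither past the threshold. The L3-S difference was 0.06 in the big pair and 0.81 in the medium to small pair. The L6-R call against L3-B passed in 9 of 17 alternative settings (1.44 to 0.77 log2). Among these, the fits without either L3-S array repeat that of the L6-R and L3-B arrays alone, so their passes are not separate. The call was lost without the L3-B medium to small array (0.77), without L6-R big (1.21) and without L6-R medium to small (1.00).

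Of the 3 tested subunits, Grik1 had the widest fitted gap between size classes. Big neurons had less signal than medium to small neurons in each code, by 0.44 log2 in L3-B, 1.20 in L3-S and 1.03 in L6-R. The fitted difference was -0.89 ± 0.21 (3 arrays per size class, unadjusted p = 0.00245, limma adjusted p = 0.998). Of 9097 genes 0% passed the adjusted threshold for size, 3.52% had an unadjusted p under 0.05, and 21.9% had 1 direction in all 3 pairs. The 3 big and the 3 medium to small arrays overlapped, since L6-R big (306) exceeded L3-B medium to small (230). Without the L3-S big or L3-S medium to small array the difference was -0.74, and without either L3-B array -1.11. As the mean of the gene's 2 probe sets it was -0.37. The leading probe set is of a design that can bind several transcripts of the gene. The other Grik1 probe set read 1.61 to 32.9, with its highest signals in the L6-R arrays (32.9 and 27.8) and no such size gap (0.14 ± 0.19).

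Grin3a (chromosome 4), the glycine-binding NMDA subunit that lowers calcium passage, was ordered by code in every array. L3-B read 48.4 (big) and 71.0 (medium to small), L3-S 105 and 98.3, and L6-R 162 and 136. No 2 codes overlapped. Within L3-S and within L6-R the arrays differed by less than the residual SD of 0.24 log2, and the 2 L3-B arrays by 0.36.

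Grin3a rose in L6-R against L3-B by 0.98 ± 0.24 log2 (SE, 2 arrays per code, limma adjusted p = 0.0437), a point estimate of 1.98-fold, with 1.27 in the big pair and 0.70 in the medium to small pair. L3-S stood 0.55 ± 0.24 above L3-B (adjusted p = 0.482) and L6-R 0.43 ± 0.24 above L3-S (adjusted p = 0.438), neither past the threshold. Codes without overlap and higher in the first were also found in 22.4% of the genes tested between L3-S and L3-B, 25.3% between L6-R and L3-S, and 25.8% between L6-R and L3-B. Big neurons differed from medium to small ones by -0.03 ± 0.20 (adjusted p = 0.998). The L6-R call against L3-B passed in 6 of 16 alternative settings (0.56 to 1.32 log2). Here too the fits without either L3-S array repeat that of the L6-R and L3-B arrays alone. The call was lost without the L3-B big array (0.74), without L6-R big (0.81) and without L6-R medium to small (1.16). With the higher pseudocount the value was 0.56 (adjusted p = 0.0902), and as the mean of the gene's probe sets 0.65 (adjusted p = 0.147).

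A second Grin3a probe set gave the same order of codes without using the leading one. L3-B read 53.7 and 51.7 there, L3-S 113 and 72.8, and L6-R 133 and 142. In the fit to every probe set without a filter it differed by 1.00 ± 0.21 between L6-R and L3-B (adjusted p = 0.158), where the leading one stood at 0.98 ± 0.21 (adjusted p = 0.169). The remaining Grin3a probe set read 0.664 to 24.7, under background throughout. Both probe sets of a gene measure the same 6 RNA pools, so they are no further replicates.

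**Figure D2:**
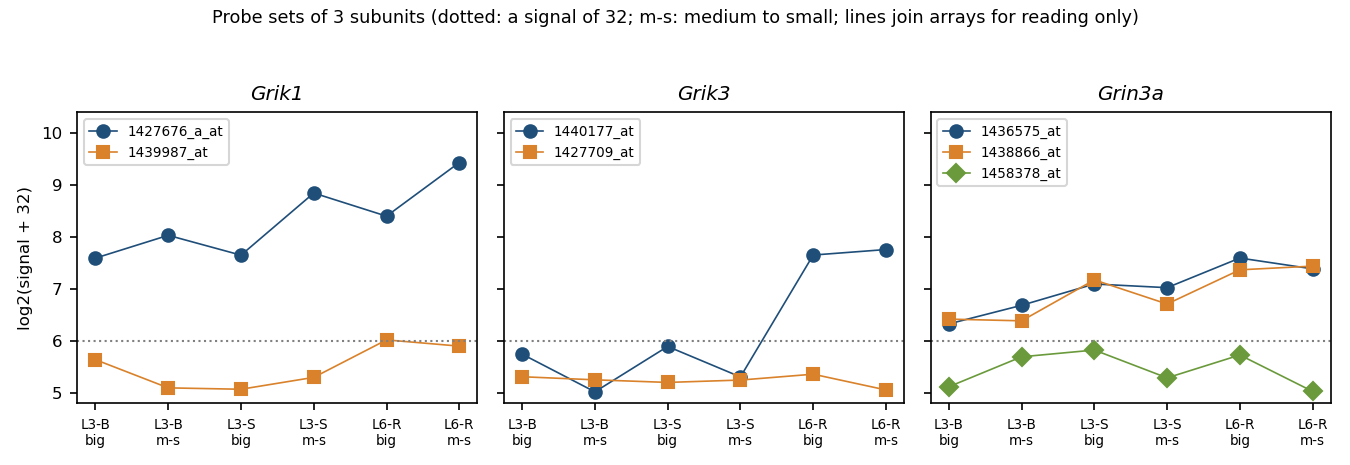
Log2(signal + 32) of every probe set of Grik1, Grik3 and Grin3a in the 6 arrays, with 1 colour and marker a probe set and a dotted line at a signal of 32. Both brighter Grin3a probe sets are lowest in L3-B and highest in L6-R, while only 1 Grik3 probe set leaves background, in the L6-R arrays at 169 and 185.

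Grik4 (chromosome 9), a high-affinity kainate subunit that needs a partner, had its highest signal in an L3-B array. L3-B read 192 (big) and 94.8 (medium to small), L3-S 54.1 and 89.4, and L6-R 99.2 and 109. L3-B big was the highest array and L3-S big the lowest. The 4 arrays between them spanned 89.4 to 109, with neighbours closer than the residual SD of 0.32 log2. L3-S stood below L3-B by -0.72 ± 0.32 (adjusted p = 0.495), with -1.38 in the big pair and -0.06 in the medium to small pair. L6-R stood 0.41 ± 0.32 above L3-S (adjusted p = 0.591) and -0.31 ± 0.32 from L3-B (adjusted p = 0.637).

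The size difference of Grik4 turned between codes, with big neurons at 0.82 log2 above medium to small ones in L3-B, -0.50 in L3-S and -0.10 in L6-R. Over the 6 arrays its log2 values had a Pearson r of 0.61 with the log2 Actb ratio, as a description. The ratio was 13.9 in L3-B big, the array with the highest Grik4 signal, and 5.42 in L3-S big, the one with the lowest. The medium to small arrays of these codes had ratios of 3.73 (L3-B) and 12.0 (L3-S) at Grik4 signals of 94.8 and 89.4. With the log2 Actb ratio as a covariate the difference between L3-S and L3-B was -0.79 (limma adjusted p = 0.0330). That fit left fewer residual degrees of freedom to estimate the spread, and called 512 genes in place of 93. Without the L3-B big array that difference was -0.16, without L3-S big -0.29, without L3-B medium to small -1.28 and without L3-S medium to small -1.15 (adjusted p over all 16 alternatives, 0.0330 to 0.903).

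Grik5 (chromosome 7), the other high-affinity kainate subunit, read 6.17 (big) and 14.6 (medium to small) in L3-B, with 14.5 and 58.9 for L3-S and 58.5 and 42.9 for L6-R. Only L3-S medium to small and the L6-R arrays exceeded 32, and these 3 lay within 0.28 log2 of each other. In the fit without a filter L6-R stood 0.96 ± 0.31 above L3-B (adjusted p = 0.210), L3-S 0.62 ± 0.31 above L3-B (adjusted p = 0.653) and L6-R 0.34 ± 0.31 above L3-S (adjusted p = 0.728). L6-R exceeded L3-S by 0.96 in the big pair and differed by -0.28 in the medium to small pair. None of these passed.

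Grik2 (chromosome 10), a pore-forming kainate subunit common in the brain, and the glutamate-binding NMDA subunits Grin2a (chromosome 16) and Grin2b (chromosome 6) had almost no signal over background. The leading Grik2 probe set read 13.7 to 37.2, over 32 in L6-R medium to small only, and the other read 1.17 to 11.2. The Grin2a probe set read 0.713 to 7.11. Of the 4 Grin2b probe sets, 2 exceeded 32, both in L3-S big only (46.4 and 33.4). Differences in this range are not resolved, and a dim probe set does not show that the transcript was missing.

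**Figure D3:**
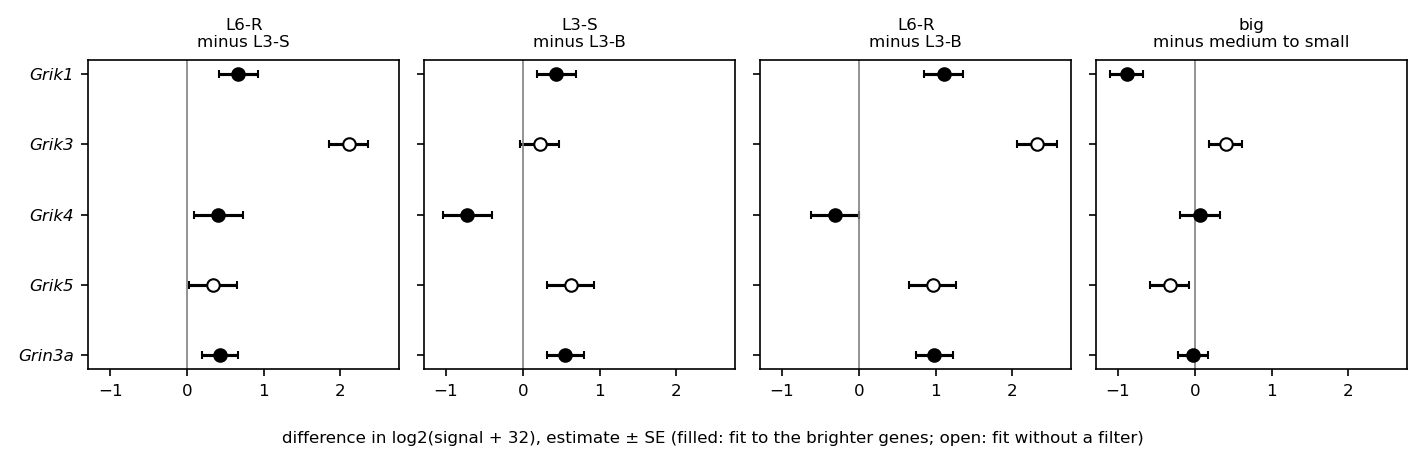
Fitted difference in log2(signal + 32) with its SE for the 5 subunits with signals of at least 32 in several arrays, in 4 comparisons; filled points come from the fit to the upper 50% of genes and open points from the fit without a filter. Grik3 stands at 2.11 and 2.32 in the L6-R comparisons, Grik1 at -0.89 for size, and Grik4 at -0.72 between L3-S and L3-B.

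Counted over the 3 tested subunits, 2 passed between L6-R and L3-B, both higher in L6-R (Grik1 and Grin3a), where 7.51% of the 9097 genes passed, 4.66% rose and 21.6% had an unadjusted p under 0.05. Between L6-R and L3-S 0 passed, against 3.18% of genes, and 1, Grik1, had an unadjusted p under 0.05 (0.0295, against 15.6% of genes). Between L3-S and L3-B 0 passed, against 1.02% of genes, and 1, Grin3a, had an unadjusted p of 0.0473 (10.2% of genes). Limma's F test of any difference among the 3 codes passed 0 of the 3, against 6.27% of genes, with adjusted p of 0.0822 for Grik1, 0.0971 for Grin3a and 0.415 for Grik4. Without a filter Grik1 and Grin3a lost their calls between L6-R and L3-B (adjusted p = 0.0890 and 0.0927), and Grik3 alone of the 8 passed there and in the F test (adjusted p of F = 0.0194, against 1.65% of genes). The comparisons share arrays, so their values are not independent. The L3-B comparisons also differ in DiI labelling and in the number of neurons per pool, and code, label and number cannot be told apart there.

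**Figure D4:**
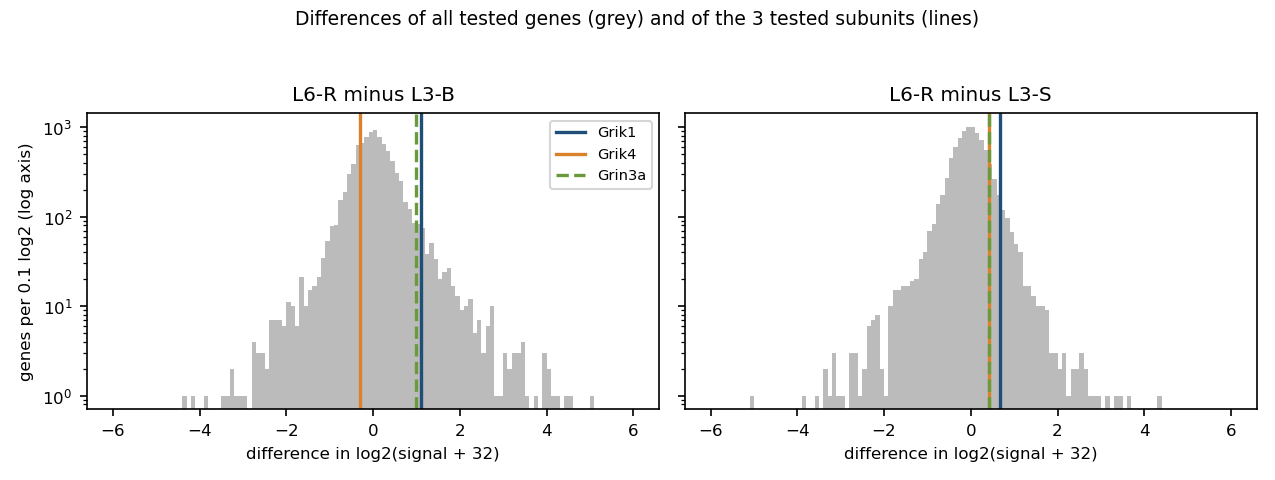
Number of genes (log axis) by difference in log2(signal + 32) for the 9097 genes tested, for L6-R minus L3-B and L6-R minus L3-S, with lines at the 3 tested subunits. Grik1 and Grin3a stand at 1.10 and 0.98 on the left and at 0.67 and 0.43 on the right, where Grik4 (0.41) lies under the Grin3a line.

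Markers of cell types also differed between the codes. Between L6-R and L3-B, 5 of 9 tested satellite glia and Schwann cell markers rose (median 1.53 log2), and their summed signal ran over 11984 to 12879 for L3-B, 13916 to 17472 for L3-S and 15329 to 21261 for L6-R. All 3 tested connective tissue and vessel markers rose too (median 1.73), with summed signals of 286 to 407 in L3-B, 1378 to 1526 in L3-S and 986 to 1780 in L6-R. All 5 tested peptidergic nociceptor markers rose (median 3.47), with summed signals of 141 to 238 in L3-B, 1772 to 2245 in L3-S and 5512 to 7555 in L6-R. Trpv1, Adcyap1 and Trpa1 of this list, and Runx1 of the non-peptidergic list, read under 32 in both L3-B arrays. Gfra3 of the peptidergic list read 34.8 (big) and 25.8 (medium to small) in L3-B. Sox10 of the glial list read 38.7 and 7.36 there, and Mal of that list 65.9 and 37.7. All these markers were among the tested genes through the other codes, so any rise of theirs was largely set by the filter. Of 6 tested markers of large myelinated-fibre neurons, 1 rose and 3 fell (median -0.89), and of 5 tested non-peptidergic nociceptor markers 2 rose (median 1.13). Between L6-R and L3-S, 4 of 5 peptidergic markers rose (median 1.74) and 1 of 6 large-fibre markers fell (median -0.44), while 0 of 9 glial markers (median 0.33), 0 of 3 connective tissue and vessel markers (median 0.20) and 0 of 5 non-peptidergic markers (median 0.30) passed. Trpa1 read 56.1 (big) and 30.2 (medium to small) in L3-S against 600 and 274 in L6-R. It was thus tested through its L6-R signals, and a pass between these codes is no support of its own. No marker of these lists was listed at 0, and their part in the Grik1, Grik3 and Grin3a differences was not tested. Of 8 blood and immune markers, 1 was tested and did not pass. Over all 9097 genes the median was 0.02 log2 between L6-R and L3-B, where 4.66% rose and 2.85% fell. Between L6-R and L3-S, 115 of the 9097 genes rose and 174 fell.

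Over the 6 arrays, and as a description only, the tested genes most like Grik1 among 2443 with a range of at least 1 log2 were Reep3, an endoplasmic reticulum protein (Pearson r = 0.976), Col6a2, a collagen chain (0.971), and Ciao3, a factor of iron-sulfur protein assembly (0.952). For Grin3a they were Smarca1, a chromatin remodeller (0.995), Nol3, an inhibitor of cell death (0.993), and Epc1, a chromatin protein (0.987). For Grik4 they were A530047J11Rik (0.975), Scoc (0.936) and Agpat3, a lipid acyltransferase (0.927). At r of 0.9 or more stood 190 candidates for Grin3a, 23 for Grik1 and 14 for Grik4. Among the subunits themselves, Grin3a ran with Grik5 (0.796) and Grik3 (0.765), Grik1 with Grik5 (0.784) and Grik2 (0.758), and Grik4 against Grin3a (-0.513). Grik2, Grik3 and Grik5 lay in the background in several arrays, so their values rest partly on unresolved signals. Every such value rests on the same 6 arrays.

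Other ionotropic glutamate receptor subunits did not pass in any comparison. Of 9 listed, 8 had a probe set and 4 were tested, with medians of -0.38 log2 between L6-R and L3-S (all genes, -0.01), 0.07 between L3-S and L3-B (0.03), -0.37 between L6-R and L3-B (0.02) and -0.02 for size (-0.02). The AMPA receptor subunits Gria4 and Gria3 stood at -0.49 and -0.48 in L6-R against L3-S (adjusted p = 0.376 and 0.495). Gria2, the AMPA subunit that blocks calcium, stood at -0.36 against L3-B and Grid1, a delta receptor subunit, at 0.53 (adjusted p = 0.400 and 0.243). In L3-S against L3-B, Grid1 stood at 0.42 (adjusted p = 0.661) and Gria4 at 0.11 (adjusted p = 0.964). The NMDA subunit Grin2d, not tested, read 37.4 to 56.6 in all 6 arrays, while Grin2c and Grin3b read 2.49 to 30.1.

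Among auxiliary and scaffold proteins of these receptors, Lin7b, a small PDZ-domain protein of synaptic scaffolds, was the single gene past the threshold. L3-B read 719 (big) and 663 (medium to small), L3-S 583 and 677, and L6-R 218 and 215, so both L6-R arrays lay far below the other 4. It fell by 1.54 ± 0.22 in L6-R against L3-B (2 arrays per code, limma adjusted p = 0.00470) and by 1.41 ± 0.22 against L3-S (adjusted p = 0.0145). Of all genes tested, 2.85% fell in the former comparison and 1.91% in the latter. The call against L3-B passed in 17 of 17 alternatives. That against L3-S was lost without the L6-R big array (-1.44, adjusted p = 0.0869) and without L6-R medium to small (-1.38, adjusted p = 0.110). Of 26 genes listed, 24 had a probe set and 19 were tested, with medians of -0.05 and -0.10 in these comparisons and -0.08 in L3-S against L3-B.

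Other scaffold genes stood closer to the threshold without passing. Lrp8, a reelin receptor that binds NMDA receptor complexes, stood at 1.06 ± 0.23 in L6-R against L3-S (adjusted p = 0.0508) and passed in 7 of 16 alternatives. Among these, the fits without either L3-B array repeat that of the L6-R and L3-S arrays alone. As the mean of its probe sets Lrp8 stood at 0.43 (limma adjusted p = 0.333). Dlgap3, a scaffold of the postsynaptic density, stood at -0.72 in L6-R against L3-S (adjusted p = 0.155). Klhl17, an actin-binding protein that takes the Grik2 subunit to degradation, stood at -0.90 in L6-R against L3-B (adjusted p = 0.0827), and Dlg2, a membrane scaffold of NMDA receptors, at -0.71 (adjusted p = 0.101). In L3-S against L3-B, Dlg2 stood at -0.75 (adjusted p = 0.216) and Dlg1 at 0.68 (adjusted p = 0.406).

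Slc1a1, a neuronal glutamate transporter, was the single gene past the threshold among those of glutamate transport and supply, of which 7 of 13 were tested. L3-B read 157 and 124, L3-S 109 and 132, and L6-R 59.8 and 45.6, where both arrays lay below the other 4. It fell by 1.02 ± 0.24 in L6-R against L3-B (adjusted p = 0.0366) and stood at -0.85 ± 0.24 against L3-S (adjusted p = 0.108). The former call was lost without the L3-B big array (-0.89, adjusted p = 0.0945), without L6-R big (-1.13, adjusted p = 0.173) and without L6-R medium to small (-0.92, adjusted p = 0.297), and with the higher pseudocount it was -0.57 (adjusted p = 0.0869). The list's medians were -0.32, -0.12 and -0.31 in L6-R against L3-S, L3-S against L3-B and L6-R against L3-B. The vesicular glutamate transporter Slc17a6 stood at -0.40 in L6-R against L3-B and -0.34 in L3-S against L3-B, and the glutamine transporters Slc38a2 and Slc38a1 at -0.31 and 0.44 in these comparisons. Slc38a1 stood at -0.75 in L6-R against L3-S (adjusted p = 0.155).

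Kinases, phosphatases and co-agonist genes of NMDA receptors (10 of 15 tested) and metabotropic glutamate receptors (3 of 8 tested) had 0 members past the threshold in any comparison. The kinase genes Camk2g and Prkcb stood at -0.58 and 0.88 in L3-S against L3-B (adjusted p = 0.407 and 0.236) and at 0.47 and -0.44 in L6-R against L3-S. In L6-R against L3-B, Prkcb stood at 0.44 and the calcineurin subunit Ppp3ca at -0.44. The inhibitory presynaptic receptors Grm7 and Grm4 stood at -0.71 and -0.68 in L6-R against L3-B (adjusted p = 0.108 and 0.110). Grm4 stood at -0.57 and Grm8 at 0.48 in L6-R against L3-S, and Grm8 at -0.65 and Grm7 at -0.52 in L3-S against L3-B. For size, 0 genes of these 5 lists passed, with differences between -0.39 and 0.45.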

How the data were processed

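Per the deposited table, values are linear signal intensity, 1 per probe set, made by the authors; how they were summarised and scaled is not given in the sources used here, and the mean of each array after trimming 2% at each end was 150, so nothing was normalized again. No detection calls were used, and arrays hold no counts, so their number limits the precision. Symbols came from the platform annotation: 34945 probe sets carried 1 symbol, 932 several and 9160 none; 34741 were matched to a current gene table by gene identifier, and 0 changed. R 4.3.3 with limma 3.58.1 (lmFit, eBayes, 2 residual and 6.46 prior degrees of freedom, two-sided) fitted code and size class to log2(signal + 32) of the upper 50% of genes, lowest mean 6.41, with p-values adjusted by Benjamini and Hochberg over all genes tested. An interaction of code and size leaves no residual, so the code effect is taken as alike in both classes. The script was tested on simulated data. Subunits and lists were chosen with earlier results of these data known, and lists are given by counts and medians without a set test. From the 5 pathway lists, genes past the threshold and, per comparison, up to 2 further genes with the smallest p were named, except that for size the lists are given by their range. No protein table was used here.

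Alternatives were pseudocounts of 1 and of 4 times 32 (the higher pseudocount), no filter, an upper 25% filter, quantile normalization, tests of every probe set, averages over the probe sets of a gene, array weights, the Actb ratio as a covariate, eBayes with a trend, arrays of the codes compared only, and each array left out. The fit without a filter was among these from the start. Taking it as the reported fit for Grik3 and Grik5, which the filter removes, and combining it with other settings were chosen after seeing the data. Leaving out either array of the code not compared gives the same fit as the arrays of the codes compared only. Counts of alternatives that passed hold such repeats, which are not separate support.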

Additional observations from a re-analysis of the deposited data

How the results depend on the processing

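No paired analysis was possible because each code and size class has 1 array and size class is already a term of the model. Of the alternatives' values for counts of subunits past the threshold, 59 were alike and 24 moved, and of those for single genes 754 kept direction and side of the threshold, 36 lost and 26 gained a call, and 20 changed sign. Between L6-R and L3-B the 2 calls became 0 with a pseudocount of 1, quantile normalization or averaged probe sets, 1 without a filter (Grik3), with the upper 25% filter, with every probe set tested or with an eBayes trend, and 0 to 2 with 1 array left out. Between L6-R and L3-S the 0 became 1 (Grik3) with the higher pseudocount, no filter or every probe set tested. With the higher pseudocount or every probe set, Grik3 passed the filter through its L6-R signals. The number of subunits tested also changed, to 8 without a filter, 4 with the higher pseudocount and 1 with the upper 25% filter. That 1 was Grik1, which kept its call between L6-R and L3-B (limma adjusted p = 0.0372). With the higher pseudocount the 2 calls there were Grik1 and Grik3, since Grin3a lost its call (limma adjusted p = 0.0902). Between L3-S and L3-B the 0 became 1 with the Actb covariate. For any difference among the codes the 0 became 1 with the higher pseudocount, no filter, every probe set tested or array weights, 3 with the Actb covariate, and 0 to 2 with 1 array left out.

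Signs changed only for differences that had not passed. Leaving out 1 array, Grik4 ran from -0.015 to 0.84 for L6-R against L3-S, -0.87 to 0.25 for L6-R against L3-B and -0.30 to 0.36 for size, Grin3a from -0.14 to 0.14 for size, Gria3 from -0.97 to 0.012 and Grik5 from -0.14 to 0.82 for L6-R against L3-S, and Grik3 from -0.025 to 0.46, Gria4 from -0.15 to 0.36 and Grm8 from -1.36 to 0.064 for L3-S against L3-B. For size, Grik4 was -0.054 with array weights and -0.033 with the Actb covariate, and Grin3a 0.00089 with the higher pseudocount, 0.11 with averaged probe sets, 0.087 with array weights and 0.012 with the Actb covariate. With averaged probe sets Gria4 was -0.11 for L3-S against L3-B. The cause was not tested.

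Over all genes, the 289 calls between L6-R and L3-S became 134 with a pseudocount of 1, 107 without a filter, 994 with the Actb covariate and 653 with the arrays of these codes alone, the 93 between L3-S and L3-B 14 without a filter and 512 with the covariate, and the 683 between L6-R and L3-B 299 with the upper 25% filter and 1590 with the covariate. With 2 arrays per code and signals near background, the differences of Grik2, Grik5, Grin2a and Grin2b were not resolved.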
